A study of Mus musculus with 18 samples.

Results

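Bulk RNA sequencing compared cultures of marrow labelled Cysltr1-/- with wild-type (WT) cultures, both grown with GM-CSF and IL-6. Those 6 libraries, 3 per genotype, were chosen by their titles from the 18 libraries of the series. Cysltr1 encodes a receptor for cysteinyl leukotrienes. The WT mice are given as BALB/c, and whether the deficient mice had the same strain background is not stated plainly, so strain and the Cysltr1 allele cannot be told apart in what follows. Each library came from a pool of marrow from 3 mice, cultured for 4 days to grow myeloid cells, and both genotypes received 40 ng/mL GM-CSF together with 40 ng/mL IL-6. The 12 other libraries held the same 2 genotypes with 40 ng/mL GM-CSF alone, or with GM-CSF and medium conditioned by EMT6 mammary tumour cells. The labels give neither the design of the Cysltr1 allele nor the age or sex of the mice. They do not say whether replicates were separate pools or repeated samples of 1 pool, so p-values measure the spread between these libraries, which may be technical.

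Cysteinyl leukotrienes are lipid mediators that 5-lipoxygenase and leukotriene C4 synthase make from arachidonic acid, and myeloid cells, eosinophils and mast cells both release and sense them. GM-CSF drives marrow progenitors towards granulocytes, macrophages and dendritic cells. IL-6 signals through its receptor and gp130 to the transcription factor STAT3, and it is often added to GM-CSF to grow myeloid cells that restrain T cells.

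Gene counts came to between 21867873 and 24372513 in the libraries labelled Cysltr1-/- and between 23591758 and 28855190 in the WT libraries. Reads in no annotated feature took 18.1% to 20.5% of the reads in the libraries labelled Cysltr1-/- and 13.3% to 15.6% in the WT libraries. The groups did not overlap in this share, and when each library's background was subtracted, 6517 genes were called between the genotypes in place of 8635. Log2 expression correlated at 0.9975 to 0.998 between libraries of 1 group and at 0.976 to 0.979 across genotypes. Levels are given as CPM, a gene count scaled to a common library size, after TMM scaling. A difference is a log2 fold change, the libraries labelled Cysltr1-/- over WT, with its standard error (SE), and a gene was called when its adjusted p from edgeR was under 0.05. Itgam, the integrin chain CD11b that marks myeloid cells, had 677, 667 and 698 CPM in the libraries labelled Cysltr1-/- and 750.4, 807 and 759 CPM in the WT libraries, so the marker was present in all 6. A level in bulk RNA can be lower because fewer cells of a type were present or because each held less RNA, and these cannot be told apart here.

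The targeted gene was measured first. Cysltr1 (chrX:106574346-106603679, build GRCm38) had 90.8, 90.8 and 87.7 CPM in the libraries labelled Cysltr1-/-, against 80.5, 81.7 and 80.1 CPM in the WT libraries. All 3 labelled libraries lay above all WT ones, by 0.15 ± 0.05 (edgeR adjusted p = 0.0301), so the transcript was not lower where the label says the gene is deficient. A count over the whole gene cannot show a small deletion or a disrupted reading frame, and the genotype is therefore named as the label gives it. The call was lost with DESeq2 (adjusted p = 0.0765), and in edgeR without any 1 of 5 of the 6 libraries (adjusted p = 0.0557 to 0.0918), so only the absence of a fall is firm. Fndc3c1, a gene 0.118 Mb before Cysltr1 on the X chromosome (chrX:106420041-106485401), had 46.4, 45.5 and 45.9 CPM in the labelled libraries, against 0.473, 0.207 and 0.526 CPM in the WT libraries. Its log2 difference of 6.77 ± 0.14 was the largest among genes of at least 5 CPM.

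**Figure D1:**
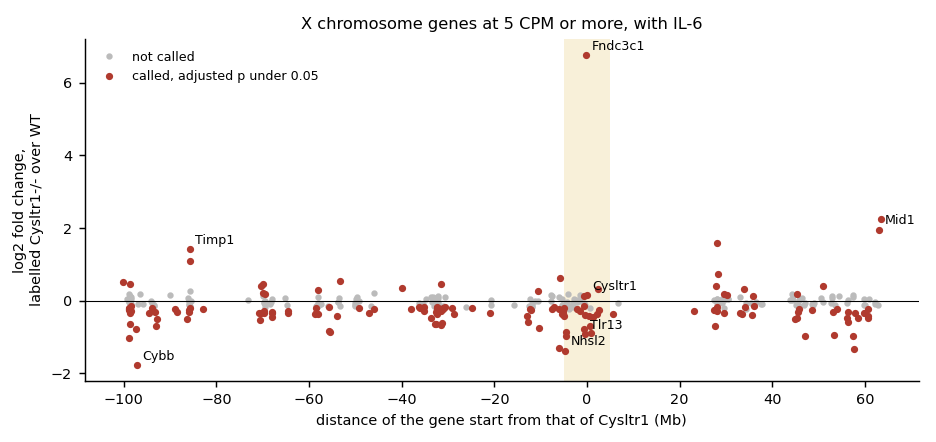
Log2 fold change (libraries labelled Cysltr1-/- over WT, with IL-6) of X chromosome genes of at least 5 CPM against the distance of their start from that of Cysltr1, in Mb; red points were called and the shaded band spans 5 Mb to either side. Fndc3c1 at 6.77 stands far above its neighbours, while Cysltr1 lies near 0.

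Other neighbours of Cysltr1 differed less. Of 101 tested genes within 5 Mb of Cysltr1 on the X chromosome, 9 were called higher and 17 lower, which is 25.7%, against 30.7% of autosomal genes. Among neighbours of at least 5 CPM, Nhsl2 fell by 1.38, Ercc6l, a mitotic helicase, fell by 0.98, and Tlr13, an endosomal sensor of bacterial ribosomal RNA, fell by 0.92. Atp7a, a copper transporter, fell by 0.78, and Itm2a fell by 0.88. P2ry10 and Gpr174, receptors for lysophospholipids on lymphocytes and myeloid cells, fell by 0.42 and 0.70. The plot of fold change by distance shows these falls beside genes that were not called.

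Across 28334 genes tested, 8635 (30.5%) were called between the genotypes with IL-6. Of these, 3420 (12.1%) were higher in the labelled libraries and 5215 (18.4%) were lower. Among the 11166 genes of at least 5 CPM in either group, 1263 (11.3%) were higher and 4782 (42.8%) lower, and at 2-fold or more 75 were higher and 216 lower. Of the genes called higher, 914 had means under 1 CPM in both groups. The 3 libraries of each genotype did not overlap, higher in the labelled ones, for 20.9% of tested genes and, lower in them, for 22.9%. These shares depend on the genes tested, which were filtered over all 18 libraries. When only the IL-6 groups were filtered and fitted, 19924 genes were tested and 9375 called, 4375 higher and 5000 lower. The balance of directions depended on scaling: 39.6% of calls were higher with TMM, 68.1% (6257 higher, 2933 lower) with library sizes alone and 61.7% (5972 higher, 3703 lower) when TMM used the IL-6 libraries and genes of at least 5 CPM. It was 53.2% (3159 higher, 2783 lower) when only genes of at least 5 CPM were fitted. The median log2 difference moved by 0.13 to 0.14 between those scalings and the one used, so a difference near those sizes carries no firm direction, and the median of a gene list shifts likewise.

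**Figure D2:**
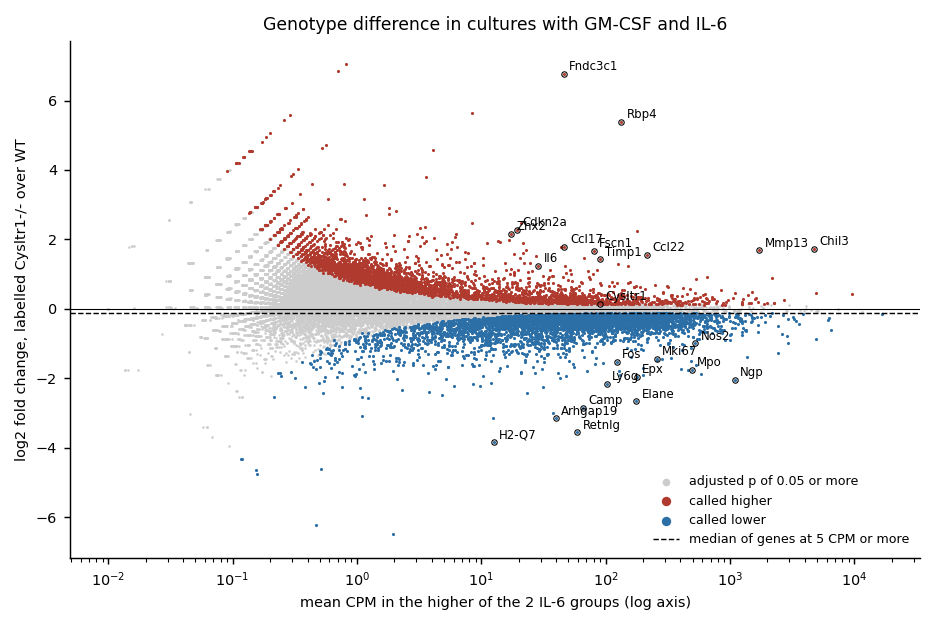
Log2 fold change (libraries labelled Cysltr1-/- over WT, both with GM-CSF and IL-6) of every tested gene against its mean CPM in the higher group, on a log axis; red and blue points were called higher and lower, grey points were not called. The dashed line at -0.12 is the median of genes of at least 5 CPM, and Retnlg, Camp and Elane lie far below it while Fndc3c1 and Rbp4 lie far above.

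Rbp4, the plasma carrier of retinol, had 135, 136 and 129 CPM in the labelled libraries (chr19:38116629-38125281), against 3.35, 3.42 and 2.83 CPM in the WT libraries. Its log2 difference was 5.39 ± 0.09 (edgeR adjusted p = 1.08e-38), 41.8-fold, and every labelled library stood far above every WT one. The other largest rises included Car6, a secreted carbonic anhydrase (2.48 ± 0.16), Btbd11 (2.47 ± 0.11), Pla2g5, a secreted phospholipase that releases arachidonic acid (2.17 ± 0.16), Mid1, a ubiquitin ligase of microtubules (1.95 ± 0.12), and Il20rb, a receptor chain for IL-20 family cytokines (1.91 ± 0.11). Sox21, a transcription factor, and Adam11 were also among the largest rises (1.91 ± 0.20 and 1.89 ± 0.13). Mid1 lies 63.1 Mb after Cysltr1 on the X chromosome. Close to it, at 63.4 Mb, Gm21887 (2.25), G530011O06Rik (3.80), Gm15726 (3.18) and Gm15247 (2.13) were also called higher, all but Gm21887 under 5 CPM. Between them, 4933400A11Rik was not called. Whether these rises share a cause was not tested. Zhx2, a transcriptional repressor, had 17.6, 16.8 and 17.3 CPM in the labelled libraries and 3.66, 3.89 and 4.00 CPM in WT. Some BALB/c substrains carry a hypomorphic Zhx2 allele, and which alleles these marrows carry was not tested.

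Of the 12 largest falls, 7 were genes of granulocytes (Retnlg, Camp, Elane, Fcnb, Prg3, Itgb2l and Ly6g). H2-Q7, a non-classical MHC class I gene, had 0.830, 0.778 and 1.01 CPM in the labelled libraries, against 12.6, 12.4 and 12.7 CPM in WT (-3.83 ± 0.15), with near-identical H2-Q copies that make the value uncertain. Retnlg, a resistin-like protein of mature neutrophils, had 5.26, 5.01 and 4.75 CPM in the labelled libraries and 58.8, 59.3 and 59.1 CPM in WT, 11.8-fold lower (-3.56 ± 0.08, edgeR adjusted p = 5.22e-33). Arhgap19, a regulator of RhoA in dividing cells, fell by 3.16 and Otud3, a deubiquitinase, by 3.14. Mfap1a, a splicing factor with a close copy in the genome, fell by 2.41 and B3galt2, a galactosyltransferase, by 2.13. Under GM-CSF alone those 4 genes also fell, by 3.84, 2.61, 2.18 and 2.28.

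Neutrophil granule genes were lower in the labelled libraries. Of 10 tested genes of primary granules, made in promyelocytes, 9 fell and 1 rose, with a median of -1.30, beside a median of -0.12 over genes of at least 5 CPM. Elane, neutrophil elastase (chr10:79886247-79888215), had 27.2, 28.4 and 27.5 CPM in the labelled libraries, against 174, 181 and 171 CPM in WT. The groups lay 6.33-fold apart, -2.66 ± 0.06 (edgeR adjusted p = 3.56e-34), and no library of one group reached the other. Mpo, myeloperoxidase, had 150.3, 144 and 142 CPM in the labelled libraries and 479, 519 and 485 CPM in WT (-1.76 ± 0.05). Prtn3, proteinase 3, fell by 1.79 and Ctsg, cathepsin G, by 1.21, while Cst7, a cystatin that inhibits cathepsin C, rose by 0.37.

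Secondary and tertiary granule genes, switched on later in myelocytes and metamyelocytes, followed the same direction in 14 of 17 members, with 2 called higher and a median of -1.17. Camp, the cathelicidin antimicrobial peptide, had 9.09, 8.56 and 9.63 CPM in the labelled libraries, against 65.3, 66.4 and 65.6 CPM in WT (-2.85 ± 0.08). Ltf, lactoferrin, had 171, 174 and 179 CPM in the labelled libraries and 522, 559 and 524 CPM in WT (-1.61 ± 0.05). No labelled library reached any WT library for these genes. Ngp fell by 2.04, Fcnb, ficolin B, by 2.23, Itgb2l by 2.16, and Mmp9, gelatinase B, by 1.51. Chil3, a chitinase-like protein that neutrophils and alternatively activated macrophages both secrete, went against the list, with 4727, 4761 and 4737 CPM in the labelled libraries and 1398, 1467 and 1421 CPM in WT (1.73 ± 0.08). Chil4, a close copy of Chil3, was also called higher at low levels, and reads shared between them are uncertain.

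Of 19 tested genes of mature neutrophils, 18 fell and none rose, with a median of -0.87. Their summed level was 3716 to 3820.3 CPM in the labelled libraries and 7411 to 7705 CPM in WT. Ly6g, the antigen that marks mouse neutrophils, had 22.3, 24.0 and 22.7 CPM in the labelled libraries, against 103, 104 and 99.9 CPM in WT (-2.15 ± 0.06). S100a8 and S100a9, the paired calprotectin subunits, fell by 1.38 and 1.27, and Cxcr2, the neutrophil chemokine receptor, fell by 0.69. Cd14 was the member without a call (-0.05 ± 0.05, edgeR adjusted p = 0.454). Stefin genes of the list share near-identical copies, so their separate values are uncertain.

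Eosinophil granule genes were lower too. Epx, eosinophil peroxidase, had 47.0, 47.0 and 44.1 CPM in the labelled libraries, against 178, 184 and 173 CPM in WT (-1.95 ± 0.06). Prg2, major basic protein, had 55.3, 53.5 and 52.0 CPM in the labelled libraries and 194, 206 and 206 CPM in WT (-1.91 ± 0.06). Neither gene overlapped between the groups, and of 12 tested list members 7 fell and 2 rose. Among all genes of at least 5 CPM, 42.8% were called lower and 11.3% higher. Siglecf, an eosinophil lectin, fell by 0.92, and Ccr3, the eotaxin receptor, was not called (0.12 ± 0.17). Alox15, a lipoxygenase, rose by 0.40. The Ear and Rnase2 genes of this list are near-identical copies. The basophil proteases Prss34 and Mcpt8 fell by 1.41 and 1.40, with 32.8, 32.0 and 30.1 CPM of Prss34 in the labelled libraries and 79.3, 86.5 and 85.7 CPM in WT. Other mast cell and basophil genes went the other way: Kit, the stem cell factor receptor, rose by 0.54 and Fcer1a, a chain of the IgE receptor, by 0.73, so that 7 of 14 list members rose and 4 fell, or 7 and 2 with library sizes alone.

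**Figure D3:**
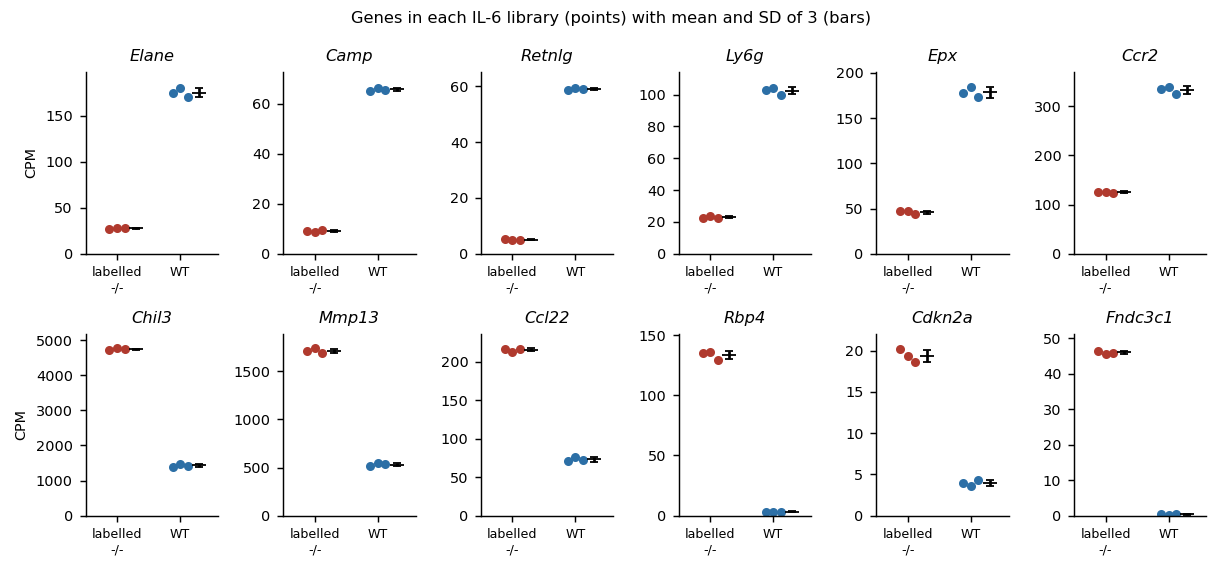
CPM of 12 genes in each IL-6 library, labelled Cysltr1-/- on the left of each panel and WT on the right; points are libraries and bars are the mean and SD of 3. The groups do not overlap in any panel: Elane, Camp, Retnlg, Ly6g, Epx and Ccr2 are lower, and Chil3, Mmp13, Ccl22, Rbp4, Cdkn2a and Fndc3c1 higher, in the labelled libraries.

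Monocyte genes were mostly lower and genes of alternative activation mostly higher, and more dendritic cell genes rose than fell. Ccr2, the receptor that brings monocytes out of marrow, had 126, 126 and 123 CPM in the labelled libraries, against 336, 339.9 and 325 CPM in WT (-1.41 ± 0.05). F13a1, coagulation factor XIII A, had 168, 154 and 153 CPM in the labelled libraries and 584, 603 and 564 CPM in WT (-1.88 ± 0.06). Neither gene overlapped between groups. In the monocyte list 13 of 19 members fell and 1 rose (median -0.45), beside 42.8% of all genes of at least 5 CPM called lower. Ly6c2, the classical monocyte antigen, fell by 1.85 with reads shared with Ly6c1, and Csf1r, the M-CSF receptor, fell by 0.56, while Cx3cr1, which was under 2 CPM in every IL-6 library, rose by 0.98.

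In the list of alternative activation, 11 of 16 members rose and 4 fell (median 0.49). Ccl22 and Ccl17, chemokines for CCR4-bearing T cells, both rose: Ccl22 had 217, 213 and 217 CPM in the labelled libraries, against 70.6, 76.6 and 72.7 CPM in WT (1.56 ± 0.05). Ccl17 had 45.7, 46.1 and 48.2 CPM in the labelled libraries, against 12.9, 13.9 and 13.8 CPM in WT (1.78 ± 0.08). The lectins Mgl2 and Clec10a rose by 0.90 and 0.78, and Mrc1, the mannose receptor, by 0.27. Cd209a, a lectin of monocyte-derived dendritic cells, fell by 1.61, Retnla by 0.25, and Pparg, a lipid-sensing nuclear receptor, by 0.50. Dendritic cell genes rose in 10 of 19 members and fell in 4 (median 0.27). Their summed level overlapped, with 2932 to 3031 CPM in the labelled libraries and 2938 to 3125 CPM in WT. Fscn1, the actin bundler of mature dendritic cells, had 83.6, 80.8 and 75.7 CPM in the labelled libraries, against 23.5, 27.2 and 24.6 CPM in WT (1.68 ± 0.06). Ccr7, which guides dendritic cells to lymph nodes, rose by 0.78 and Batf3, a factor of cross-presenting dendritic cells, by 0.76, while Xcr1, a receptor of cross-presenting dendritic cells, stayed under 1 CPM in every IL-6 library and was not called. MHC class II genes went the other way, with 10 of 12 members lower and none higher (median -0.52). H2-Aa, an MHC class II chain, had 397, 403 and 405 CPM in the labelled libraries, against 619, 651 and 642 CPM in WT (-0.67 ± 0.05), and Ciita, the master activator of the class, fell by 0.48.

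Genes of cell division were lower in every member of the mitosis list. All 25 fell, with a median of -1.13. Under GM-CSF alone all 25 fell too, with a median of -1.40, and 12 interactions between the cultures were positive with none negative. Mki67, a marker of cycling cells, had 103, 92.6 and 90.1 CPM in the labelled libraries, against 261, 266 and 248 CPM in WT (-1.44 ± 0.06, edgeR adjusted p = 6.44e-24). Top2a, topoisomerase II alpha, had 79.8, 77.9 and 78.3 CPM in the labelled libraries and 176, 176 and 169 CPM in WT (-1.14 ± 0.05). Of 27 DNA replication genes 23 fell and 1 rose (median -0.50), or 18 and 3 with library sizes alone. Without IL-6, under GM-CSF alone, 25 fell and 1 rose (median -0.80). The locus of the INK4 inhibitors, which hold CDK4 and CDK6 in check, was higher: Cdkn2a had 20.2, 19.3 and 18.6 CPM in the labelled libraries, against 4.00, 3.58 and 4.33 CPM in WT (2.28 ± 0.10). A count over the whole gene cannot tell the transcripts of Cdkn2a apart. The neighbouring gene Cdkn2b had 35.1 ± 1.08 CPM in the labelled libraries and 18.5 ± 0.569 CPM in WT (SD, n = 3 each; log2 difference 0.93 ± 0.07). Not every inhibitor rose, as Cdkn1b, Cdkn2c and Cdkn2d fell by 0.57, 0.51 and 0.53. The p53 targets Phlda3 and Zmat3 rose by 0.96 and 0.83, and over the whole list of CDK inhibitors and p53 targets 11 of 18 rose and 4 fell. Genes of ribosome biogenesis rose in 19 of 22 members and none fell (median 0.34), and under GM-CSF alone 21 rose and none fell (median 0.61). With IL-6, Rrs1 rose by 0.57 and Ncl, nucleolin, by 0.22, while Myc itself was not called (-0.07 ± 0.05).

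Genes of the IL-6 response were mostly lower in the labelled libraries. Of 25 receptor and STAT3 target genes 17 fell and 4 rose (median -0.30), and under GM-CSF alone 14 fell and 7 rose (median -0.17). With library sizes alone the count with IL-6 was 15 lower and 6 higher (median -0.15). Among all genes of at least 5 CPM, 42.8% were called lower and 11.3% higher with IL-6 (median -0.12). Socs3, the feedback inhibitor that STAT3 induces, had 451, 438 and 442 CPM in the labelled libraries, against 652, 671 and 643 CPM in WT (-0.56 ± 0.05). Saa3, an acute-phase protein, had 16.0, 15.6 and 15.7 CPM in the labelled libraries and 33.2, 34.0 and 34.5 CPM in WT (-1.11 ± 0.07). Both genes were lower in every labelled library. Il6ra, the IL-6 receptor chain, fell by 0.42 and Stat3 by 0.29, whereas Il6st, gp130, was not called (-0.01 ± 0.05). Against the list, Timp1, an inhibitor of matrix proteases on the X chromosome, had 87.7, 88.9 and 93.2 CPM in the labelled libraries and 31.9, 34.2 and 34.3 CPM in WT (1.43 ± 0.07). The cytokine gene Il6 had 26.9, 29.9 and 29.6 CPM in the labelled libraries, against 11.7, 12.3 and 12.4 CPM in WT (1.25 ± 0.07), and the monocyte chemokines Ccl2, Ccl7 and Ccl8 rose by 1.09, 1.54 and 0.76. Il1b and Tnf fell by 0.80 and 0.77.

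Mediators by which myeloid cells restrain T cells split. Of 20 members 12 fell and 5 rose (median -0.43), beside 42.8% of all genes of at least 5 CPM called lower and 11.3% higher. Nos2, inducible nitric oxide synthase, had 271, 258 and 262 CPM in the labelled libraries, against 516, 548 and 509.8 CPM in WT (-0.99 ± 0.06). Cybb, the NADPH oxidase subunit gp91phox, had 143, 135 and 130.1 CPM in the labelled libraries and 458, 479.5 and 454 CPM in WT (-1.77 ± 0.05). Arg1, arginase 1, overlapped between the groups, with 4498, 4339 and 4369.9 CPM in the labelled libraries and 4376, 4654 and 4389.8 CPM in WT (-0.02 ± 0.07, edgeR adjusted p = 0.829). Cd274, the checkpoint ligand PD-L1, was not called (-0.10 ± 0.05). Its relative Pdcd1lg2, PD-L2, rose by 0.46, and Spp1, osteopontin, by 0.46.

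Enzymes of leukotriene synthesis were mostly lower. Alox5, 5-lipoxygenase, had 390.5, 371 and 367 CPM in the labelled libraries, against 504, 544 and 508 CPM in WT (-0.46 ± 0.05). Alox5ap, the protein that presents arachidonic acid to it, had 363, 357 and 366 CPM in the labelled libraries and 574, 579 and 575 CPM in WT (-0.67 ± 0.05). Lta4h, which makes leukotriene B4, fell by 0.59, and Mgst2, which can make leukotriene C4, fell by 0.83. Ltc4s, the main leukotriene C4 synthase, overlapped between the groups (-0.03 ± 0.08, edgeR adjusted p = 0.826). In all, 9 of 15 synthesis genes fell and 2 rose (median -0.28), or 8 and 3 with library sizes alone (median -0.14). Beside this, 42.8% of all genes of at least 5 CPM were called lower. Among receptors, the second cysteinyl leukotriene receptor Cysltr2 had 10.7, 11.4 and 9.98 CPM in the labelled libraries and 9.33, 8.56 and 9.87 CPM in WT, without a call (0.21 ± 0.10). Ltb4r1, the high-affinity receptor for leukotriene B4, had 272, 269 and 276 CPM in the labelled libraries, against 299, 305 and 295 CPM in WT (-0.14 ± 0.04). That size is within the shift between scalings.

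Genes of lipid synthesis and of glycolysis were mostly lower. In the cholesterol synthesis list 19 of 21 members fell and none rose (median -0.54). Mvd, mevalonate diphosphate decarboxylase, had 54.8, 54.5 and 57.3 CPM in the labelled libraries, against 101, 108 and 102 CPM in WT (-0.90 ± 0.05). All 3 labelled libraries lay below all WT ones. Insig1, which retains the sterol sensor in the endoplasmic reticulum, fell by 0.92. Ch25h, which makes 25-hydroxycholesterol, rose, with 153, 149 and 152 CPM in the labelled libraries and 61.8, 66.9 and 64.6 CPM in WT (1.23 ± 0.05). Of 14 fatty acid synthesis genes 8 fell and none rose (median -0.30), or 8 and 1 with library sizes alone (median -0.16). Beside this, 42.8% of all genes of at least 5 CPM were called lower. Acly, ATP citrate lyase, fell most in the list, by 0.89. Of 19 glycolysis genes 18 fell and none rose (median -0.38), with Aldoc falling by 0.89 and Hk2, hexokinase 2, by 0.45. Of 20 hypoxia response genes 13 fell and none rose, while 3 were called higher when TMM used genes of at least 5 CPM in the IL-6 libraries.

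**Figure D4:**
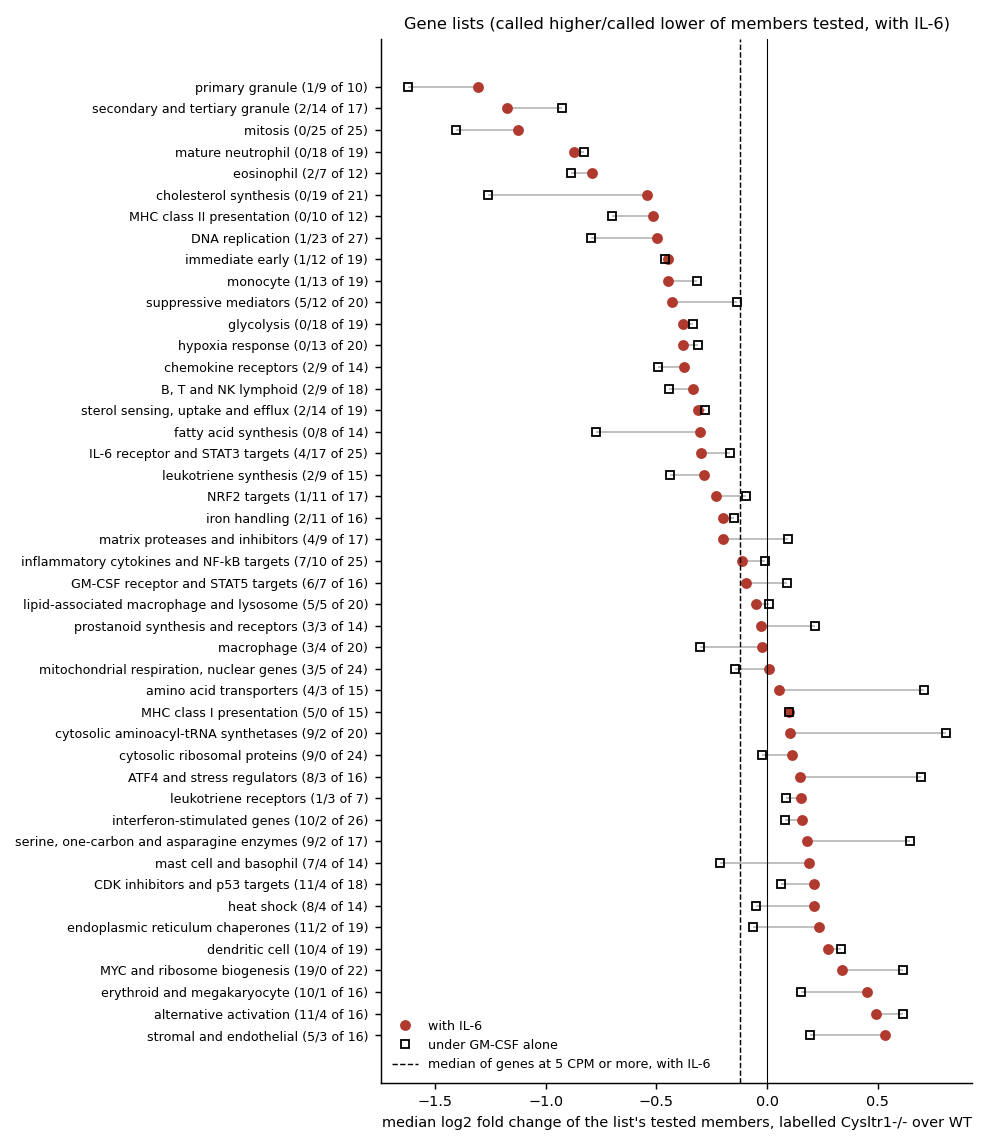
Median log2 fold change (libraries labelled Cysltr1-/- over WT) of the tested members of 45 gene lists, with IL-6 (red circles) and under GM-CSF alone (open squares); row labels give members called higher/lower of those tested with IL-6, and the dashed line is the median of genes of at least 5 CPM with IL-6, -0.12. With IL-6 the granule and mitosis lists lie lowest, and lists of amino acid metabolism and cholesterol synthesis differ most between the cultures.

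The genotype difference was then set beside that under GM-CSF alone, which shares no library with it. Both came from 1 fit, and the labels do not say whether the 2 cultures drew on the same marrow pools. Under GM-CSF alone, 7735 genes (27.3%) were called, 2858 (10.1%) higher and 4877 (17.2%) lower in the labelled libraries. With library sizes alone, 4735 were higher and 3257 lower. The 2 comparisons shared 4928 calls, which is 57.1% of those with IL-6 and 63.7% of those under GM-CSF, and 4790 of these had the same direction. The difference between the 2 genotype differences, with IL-6 minus GM-CSF alone, was tested as an interaction and called for 2091 genes (7.38%), 828 (2.92%) positive and 1263 (4.46%) negative. With DESeq2's size factors in edgeR the split was 575 positive and 1752 negative. Elane fell in both cultures, by 2.66 with IL-6 and by 3.17 under GM-CSF, and the interaction of 0.50 ± 0.08 was called. Epx was at -1.95 with IL-6 and -1.99 under GM-CSF, and its interaction was not called (0.04 ± 0.08). For Camp, Ltf, Retnlg and Ccr2 the fall was larger with IL-6, with interactions of -0.72 ± 0.11, -0.67 ± 0.07, -0.91 ± 0.11 and -0.80 ± 0.07, all called. In the secondary and tertiary granule list 11 interactions were negative and 1 positive.

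Amino acid stress genes showed the reverse: the genotypes differed widely under GM-CSF alone and little with IL-6. Many genes of this kind are targets of ATF4, the factor that cells use to restore amino acids and tRNA charging under stress. Trib3, a pseudokinase that ATF4 induces, had 289, 291 and 288 CPM in the labelled libraries with IL-6 and 205, 221 and 211 CPM in WT with IL-6. Under GM-CSF alone it had between 247 and 253 CPM in the labelled libraries and 32.5, 35.3 and 33.9 CPM in WT. The WT libraries under GM-CSF alone stood far below the other 9, and the genotype difference was 0.45 ± 0.05 with IL-6, 2.88 ± 0.06 under GM-CSF and -2.44 ± 0.08 between the 2 (edgeR adjusted p = 5.13e-27). Asns, asparagine synthetase, had 139, 133 and 131 CPM in the labelled libraries with IL-6 and 117, 122 and 117 CPM in WT with IL-6, then 177, 169 and 175 CPM in the labelled libraries and 56.6, 53.5 and 56.2 CPM in WT under GM-CSF alone (interaction -1.47 ± 0.08). Soat2, Slc6a9, Slc1a4, Chac1 and Cth were the other most negative interactions, with values of -2.47, -2.27, -2.26, -2.23 and -1.95. Slc6a9 and Slc1a4 carry glycine and neutral amino acids, Chac1 degrades glutathione, Cth makes cysteine and Soat2 esterifies cholesterol.

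By list, the median genotype difference of ATF4 and stress regulators was 0.15 with IL-6 and 0.70 under GM-CSF, and 12 of 16 interactions were negative with none positive. For cytosolic aminoacyl-tRNA synthetases it was 0.10 and 0.81, with 16 of 20 interactions negative and 1 positive. For amino acid transporters it was 0.05 and 0.71, with 11 of 15 negative and none positive, and the first of these medians was -0.03 when background was subtracted. With IL-6 alone considered, 9 of the 20 synthetases were called higher and 2 lower, but 17 and 0 when TMM used genes of at least 5 CPM in the IL-6 libraries. A promoter window follows for 4 of these genes that hold the letters TGATGCAA on either strand, the composite element that ATF4 binds with C/EBP partners, and for Hmgcs1 of the cholesterol list, which holds TCACNCCAC, a sterol-type element. The windows are RefSeq sequence of build GRCm38.p6, written 5′ to 3′ in the direction of the gene, with the matched letters in capitals (TTGCATCA is the same element read on the other strand, and Slc7a11 holds both).
Chac1, chr2:119351023-119351082, plus strand: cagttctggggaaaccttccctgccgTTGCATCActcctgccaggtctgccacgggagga
Aars, chr8:111033704-111033763, plus strand: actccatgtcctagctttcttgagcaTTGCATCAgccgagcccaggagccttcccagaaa
Nupr1, chr7:126625547-126625606, minus strand: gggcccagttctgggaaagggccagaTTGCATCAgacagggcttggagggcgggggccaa
Slc7a11, chr3:50443627-50443686, minus strand: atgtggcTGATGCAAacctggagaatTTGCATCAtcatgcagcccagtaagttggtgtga
Hmgcs1, chr13:119690188-119690248, plus strand: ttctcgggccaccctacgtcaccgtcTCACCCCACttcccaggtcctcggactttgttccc

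In promoters of 250 bases before to 50 after the start, TGATGCAA on either strand was held by 1.03% of 27025 genes, and by 5 of 15 ATF4 and stress regulators, 4 of 12 synthetases, 3 of 11 transporters, 1 of 14 serine, one-carbon and asparagine enzymes and none of 16 cholesterol synthesis genes with a promoter in the table. Trib3 and Asns were not among the genes found to hold TGATGCAA. TCACNCCAC was held by 1.44% of genes and by 1 of those 16 cholesterol synthesis genes. Aars, alanyl-tRNA synthetase, whose window is shown, had 326, 307 and 309.6 CPM in the labelled libraries with IL-6 and 289, 311 and 281 CPM in WT with IL-6, which overlapped, then 335, 330.0 and 334 CPM in the labelled libraries and 149, 156 and 142 CPM in WT under GM-CSF (interaction -1.06 ± 0.07). Nupr1, a stress-induced chromatin protein, had an interaction of -0.88 ± 0.09, and Slc7a11, the cystine carrier, of -0.38 ± 0.07. A match is a description of these letters and was not tested as a binding site.

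Cholesterol genes moved the other way between cultures. Hmgcs1, which makes HMG-CoA, had 47.4, 48.5 and 48.2 CPM in the labelled libraries with IL-6 and 68.0, 70.5 and 67.3 CPM in WT with IL-6. Under GM-CSF alone it had 58.6, 58.6 and 57.1 CPM in the labelled libraries and 171, 180.4 and 179.9 CPM in WT. It was lower in the labelled libraries in both cultures, less so with IL-6 (interaction 1.09 ± 0.07, edgeR adjusted p = 8.25e-16). Of the 21 cholesterol synthesis genes 20 had positive interactions and none a negative one, and the list's median difference was -0.54 with IL-6 and -1.26 under GM-CSF. Fasn, fatty acid synthase, had an interaction of 0.94 ± 0.09. The WT libraries under GM-CSF alone were the highest of the 4 groups for Hmgcs1 and Fasn.

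**Figure D5:**
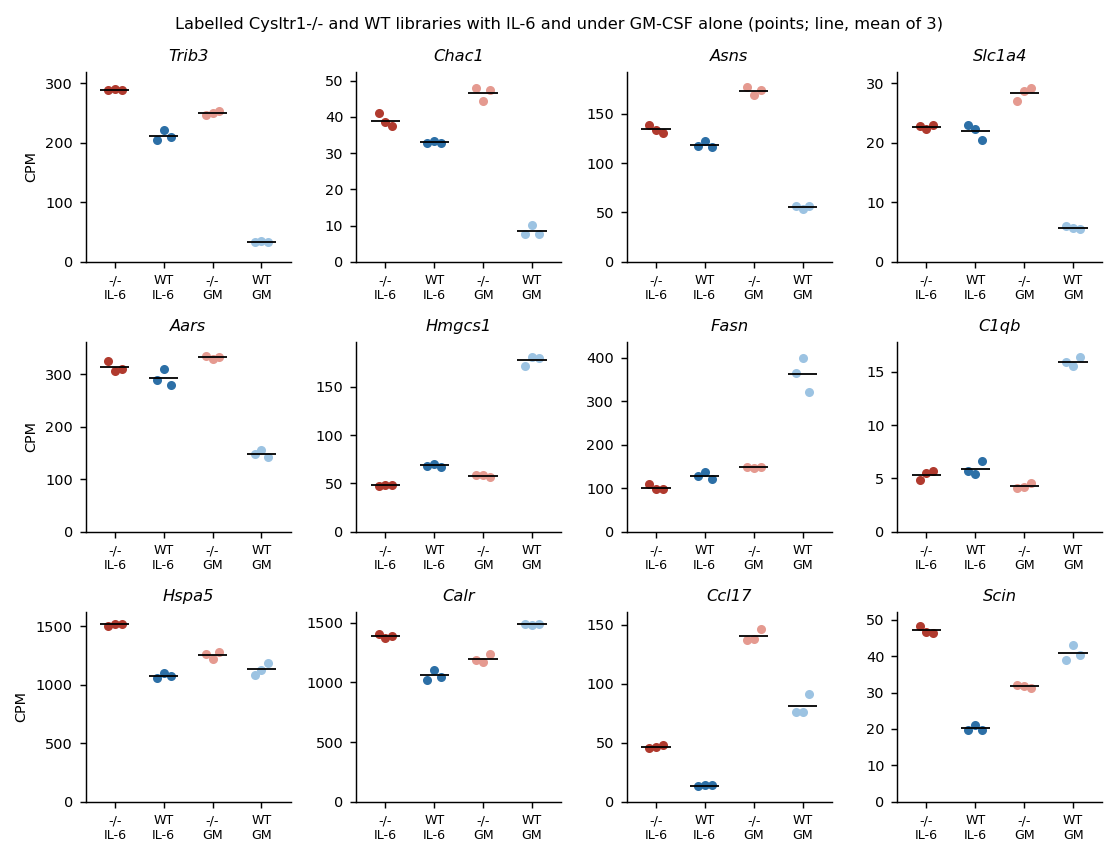
CPM of 12 genes in the libraries labelled Cysltr1-/- and WT with IL-6 (left pair of each panel) and under GM-CSF alone (right pair); points are libraries and lines are means of 3. The WT libraries under GM-CSF stand apart for Trib3, Chac1, Asns, Slc1a4, Aars, Hmgcs1, Fasn and C1qb, while for Scin the WT libraries with IL-6 are lowest.

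Genes of other groups differed in the interaction too. C1qa, C1qb and C1qc, which form the complement initiator C1q in macrophages, were not called with IL-6 and had interactions of 1.64 ± 0.15, 1.75 ± 0.16 and 1.57 ± 0.16. C1qb had 4.89, 5.49 and 5.67 CPM in the labelled libraries with IL-6 and 5.72, 5.45 and 6.59 CPM in WT with IL-6, then 4.08, 4.23 and 4.58 CPM in the labelled libraries and 15.9, 15.5 and 16.3 CPM in WT under GM-CSF. The WT libraries under GM-CSF stood far above the other 9. Scin, the actin-severing protein scinderin, turned direction, with 48.3, 46.8 and 46.5 CPM in the labelled libraries with IL-6 and 19.6, 21.1 and 19.7 CPM in WT with IL-6, then 32.1, 31.9 and 31.2 CPM in the labelled libraries and 39.0, 43.0 and 40.4 CPM in WT under GM-CSF (interaction 1.59 ± 0.10, edgeR adjusted p = 4.99e-16). Dynlt1c, a dynein light chain with near-identical copies, had an interaction of 1.81 ± 0.45 on uneven libraries, 1.80, 6.17 and 4.57 CPM in the labelled libraries with IL-6 and 3.66, 3.32 and 3.80 CPM in WT with IL-6.

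Chaperones of the endoplasmic reticulum rose in 11 of 19 members with IL-6 and fell in 2 (median 0.23), and under GM-CSF alone the median was -0.06. Hspa5, the main chaperone BiP, had 1505, 1522 and 1519.9 CPM in the labelled libraries with IL-6, against 1061, 1097 and 1071 CPM in WT with IL-6 (0.49 ± 0.04). Calr, calreticulin, was higher in the labelled libraries with IL-6 and lower under GM-CSF, 0.39 ± 0.04 and -0.31 ± 0.04 (interaction 0.71 ± 0.06). Xbp1, a regulator of the unfolded protein response, fell by 0.35 with IL-6.

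Arg1, Nos2 and Saa3 had negative interactions of -0.61 ± 0.10, -0.54 ± 0.08 and -0.74 ± 0.15. For Arg1 the genotype difference was -0.02 with IL-6 and 0.59 under GM-CSF, and for Nos2 it was -0.99 and -0.45. IL-6 itself, set against GM-CSF alone, was called for 4057 genes in marrow labelled Cysltr1-/- (14.3%: 5.54% higher and 8.77% lower) and for 6135 in WT marrow (21.7%: 10.4% higher and 11.3% lower). It changed Saa3 by 1.97 in marrow labelled Cysltr1-/- and by 2.71 in WT marrow, and Socs3 by 0.51 and 0.91. Mmp13, collagenase 3, had 1708, 1739 and 1694 CPM in the labelled libraries with IL-6, against 515, 543 and 533 CPM in WT with IL-6 (1.69 ± 0.05), and its interaction was not called (0.03 ± 0.07). In the list of suppressive mediators 9 of 20 interactions were negative and none positive.

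The summed level of lymphoid markers was lower in the labelled libraries, and their part in the results above was not tested. Over 18 tested lymphoid genes it was 239 to 249 CPM in the labelled libraries and 358 to 369 CPM in WT. Ighm, the IgM heavy chain, made up a large part of it, at 104, 100.1 and 101 CPM in the labelled libraries and 163, 170.2 and 167 CPM in WT. Of the 18 genes 9 fell and 2 rose, with differences from -1.85 to 2.44. Beside this, 42.8% of all genes of at least 5 CPM were called lower and 11.3% higher. The summed level of 16 stromal and endothelial genes was 456 to 469 CPM in the labelled libraries and 459 to 475 CPM in WT, which overlapped, with 5 rising and 3 falling. The collagen genes Col1a1 and Col3a1 were under 6 CPM in every IL-6 library.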

How the data were processed

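Poly(A) RNA libraries were aligned with HISAT2 2.1.0 to mouse build mm10 and counted per gene with HTSeq 0.13.5, per the submitters' processing notes, which also list DESeq2 1.34.0. The deposited values used here are raw counts, 1 file per library, not normalized by the authors, and the deposited table of normalized values was not used. The strand setting and filters are not given in the sources used here, so overlapping and antisense genes and near-identical copies are uncertain. Gene IDs matched GENCODE M21 (55536 of 55536). A further 26248 numbered entries, 97 spike-ins and 5 summary lines were left out of library sizes and tests. The IL-6 libraries held between 21867873 and 28855190 gene counts, which sets the counting precision.

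All 18 libraries entered edgeR 4.0.16 in R 4.3.3 (TMM, filterByExpr, quasi-likelihood F test, 1 mean per group), with Benjamini-Hochberg adjustment within each comparison over 28334 genes. DESeq2 1.42.0, other scalings, filters and sample sets, a replicate block and leaving out each library were alternatives. The code was tested on simulated counts. The members and the 45 gene lists were chosen with earlier results of these data known, and 808 of 823 list members were tested. The text names genes from the 12 largest rises and 12 largest falls among called, non-overlapping genes of at least 5 CPM without clone names, the 6 most positive and 6 most negative interactions, per list the 4 genes of lowest p, and a set fixed by name. Genes outside this rule were chosen after their values were seen, and a few genes the rule allows are not reported here.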

Additional observations from a re-analysis of the deposited data

Results flagged for a closer look

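The genotype difference with IL-6 differed from that under GM-CSF alone, by a called interaction of at least 1 on the log2 scale, for 18 of the genes named here. The values below are the difference with IL-6 minus the difference under GM-CSF, each libraries labelled Cysltr1-/- over WT. Among genes of amino acid metabolism and its stress response, Trib3 was at -2.44, Slc6a9 at -2.27, Slc1a4 at -2.26, Chac1 at -2.23, Cth at -1.95, Asns at -1.47 and Aars at -1.06. Of the lipid genes, Soat2 was at -2.47 and Ch25h at -1.19, while Hmgcs1 was at 1.09. The C1q chains C1qa, C1qb and C1qc were at 1.64, 1.75 and 1.57. Scin was at 1.59, Dynlt1c at 1.81 and Cx3cr1 at 1.18. Il6 was at -1.30 and Timp1 at -1.02.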

How the results depend on the processing

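Directions near 0 and the balance of higher and lower calls depended on scaling. Subtracting background, taking TMM from genes of at least 5 CPM and counting only those genes were alternatives chosen after seeing the data. With IL-6, genes called higher numbered 6257 with library sizes alone, 5972 with TMM from genes of at least 5 CPM in the IL-6 libraries and 1263 when only genes of at least 5 CPM were counted, and genes called lower 2933 with library sizes alone and 2783 when only genes of at least 5 CPM were fitted. Under GM-CSF 4735 were higher with library sizes alone. A minimum of 2-fold left 1559 with IL-6 (1167 higher, 392 lower), 1210 under GM-CSF (590 higher, 620 lower) and 185 interactions (120 positive, 65 negative). Positive interactions numbered 1474 when only genes of at least 5 CPM were fitted and 1283 both without the EMT6 libraries and with only the groups compared, and negative ones 1962 with DESeq2. The cause was not tested. Leaving out 1 library gave 6853 to 8239 calls with IL-6 (2408 to 3160 higher, 4418 to 5079 lower), 6664 to 7879 under GM-CSF (2272 to 2970 higher, 4328 to 4909 lower) and 1549 to 2327 interactions (605 to 1016 positive, 921 to 1311 negative).

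The replicate block gave 8638 calls with IL-6, 7768 under GM-CSF and 2151 interactions. Deviations of same-numbered libraries from their group means were compared over genes of at least 5 CPM in either IL-6 group. They correlated at 0.073, -0.0963 and -0.00028 between genotypes with IL-6 and at 0.0726, 0.0616 and 0.239 under GM-CSF. Between IL-6 and GM-CSF they correlated at 0.0818, -0.00679 and 0.0411 in marrow labelled Cysltr1-/- and at 0.0423, 0.0539 and 0.206 in WT marrow. In none of these sets were all 3 pairs above 0.1, so the numbers were not taken to pair the samples.

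Of the named genes, these changed sign in the log2 difference with IL-6, where of these only Ltb4r1 had been called. With library sizes alone, Arg1 was at 0.12, C1qa was at 0.0746, Cd14 was at 0.0930, Cd274 was at 0.0503, Il6st was at 0.13, Ltb4r1 was at 0.0103, Ltc4s was at 0.12 and Myc was at 0.0794. With no low-count filter, Arg1 was at 0.0127, Il6st was at 0.0233 and Ltc4s was at 0.00562. When only genes of at least 5 CPM were fitted, Arg1 was at 0.12, C1qa was at 0.0741, Cd14 was at 0.0915, Cd274 was at 0.0488, Il6st was at 0.13, Ltb4r1 was at 0.00882, Ltc4s was at 0.12 and Myc was at 0.0780. With only the groups compared, Arg1 was at 0.0291, Il6st was at 0.0394 and Ltc4s was at 0.0238. Without the EMT6 libraries, Arg1 was at 0.00565 and Il6st was at 0.0158. With background subtracted, Arg1 was at 0.0444, Cd14 was at 0.0129, Il6st was at 0.0529 and Ltc4s was at 0.0347. With TMM from genes of at least 5 CPM in the IL-6 libraries, Arg1 was at 0.11, C1qa was at 0.0560, Cd14 was at 0.0755, Cd274 was at 0.0329, Il6st was at 0.12, Ltc4s was at 0.10 and Myc was at 0.0620. With DESeq2, Soat2 was at -0.0242. With DESeq2's size factors in edgeR, Soat2 was at -0.0244. Leaving out 1 library, Arg1 ranged from -0.0389 to 0.00632, Dynlt1c ranged from -0.17 to 0.57, Il6st ranged from -0.0507 to 0.0115, Ltc4s ranged from -0.0863 to 0.0356 and Soat2 ranged from -0.0366 to 0.0599.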

Other observations

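Genes of the erythroid and megakaryocyte lineage were higher in the libraries labelled Cysltr1-/- in 10 of 16 tested members with IL-6 and lower in 1 (median 0.45, or 0.17 over members of at least 5 CPM). Their summed level was 1439 to 1455 CPM in the labelled libraries and 1256 to 1267 CPM in WT. Gata1, the lineage's master factor, had 22.9, 21.7 and 23.7 CPM in the labelled libraries, against 15.8, 16.3 and 17.2 CPM in WT (0.47 ± 0.08), and Itga2b, the platelet integrin chain, rose by 0.43. Interferon-stimulated genes rose in 10 of 26 members and fell in 2 (median 0.16). They came to 14 and 0 (median 0.30) with library sizes alone, and the median over members of at least 5 CPM was 0.10. Their summed level overlapped, with 433 to 449 CPM in the labelled libraries and 411 to 434 CPM in WT. Rtp4 had 3.74, 4.37 and 3.03 CPM in the labelled libraries and 1.94, 2.07 and 1.58 CPM in WT (1.00 ± 0.16), and Irf7, the factor that amplifies type I interferon, rose by 0.59.

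Immediate early genes, switched on within minutes of many stimuli, fell in 12 of 19 members and rose in 1 (median -0.45), or 11 and 3 with library sizes alone. Among all genes of at least 5 CPM, 42.8% were called lower and 11.3% higher. Fos had 42.8, 41.5 and 43.3 CPM in the labelled libraries, against 127, 124 and 118 CPM in WT (-1.53 ± 0.06), and Egr1 had 95.8, 92.6 and 93.8 CPM in the labelled libraries and 275, 263 and 244 CPM in WT (-1.47 ± 0.06). Matrix proteases split: Mmp13 was higher and Mmp9 lower, Mmp8, the neutrophil collagenase, fell by 0.98, and Mmp12, macrophage elastase, rose by 0.43. Of 14 tested heat shock genes 8 rose and 4 fell, or 9 and 0 with library sizes alone. Hsph1, an HSP70 partner, rose by 0.67.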
